A study of Mus musculus with 2 samples.

Results

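Papillary fibroblasts of mouse dorsal skin were taken as the fibroblast-gated cells with at least 3 UMIs (counted RNA molecules) of Apcdd1, Col23a1, Ntn1 and Axin2 together. The gate kept cells with at least 200 genes, at most 10% mitochondrial UMIs, at least 1% of UMIs from the collagen and matrix genes Col1a1, Col1a2, Col3a1 and Dcn, no UMI of the leukocyte gene Ptprc and under 0.2% from the basal keratins Krt5 and Krt14. Cells with 3 or more UMIs of Pi16, which marks adventitial fibroblast progenitors, were left out, as were cells with 3 or more of Col11a1, Lrrc15 and Acan, used as dermal sheath genes, and cells with 2 or more of the dermal papilla gene Corin. Members were thus chosen by their UMI counts of these genes. The rule took 869 of 20271 deposited barcodes, and these are called control members (734 cells) and IMQ members (135 cells) here.

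The skin came from the back of C57BL/6 mice, labelled wild type, female and 2 months old, with no transgene or deleted allele named for either library. The control library was from control skin, and the IMQ library from skin given imiquimod on its surface every day for 5 days, a drug that activates Toll-like receptors and brings on dermatitis resembling psoriasis. With 1 library per condition, and the number of animals per library not given in the sources used here, no test of the treatment could be made. Differences below are between the 2 libraries, and the bracketed ranges are exact 95% intervals for counting error alone.

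The dermis has an upper, papillary layer, whose fibroblasts lie against the epidermal basement membrane and around hair follicles, and a deeper, reticular layer that borders the adipose tissue. Papillary fibroblasts receive Wnt ligands from the epidermis, and genes that canonical Wnt signalling induces through β-catenin and the TCF/LEF factors, such as Axin2 and Apcdd1, are used as their markers. They also secrete signals that act on hair follicles, pigment cells, vessels and immune cells.

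Depth in all was 123088680 UMIs over 10857 barcodes for the control and 144054978 UMIs over 9414 barcodes for the IMQ library. The members had a median of 12269.5 UMIs and 2961.5 genes per cell in the control and 15764 UMIs and 3726 genes in the IMQ library, and their summed depths were 9622771 and 2246850 UMIs. The other fibroblast-gated cells were shallower, with medians of 9199.5 and 13138 UMIs. The libraries shared 23 barcodes, none of them (0) among the members. Free RNA was estimated at 10.8% of the members' UMIs in the control and 3.94% in the IMQ library.

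Members made up a smaller share of the fibroblast-gated cells in the IMQ library. The share was 10.6% (9.93 to 11.4) of 6894 cells in the control and 3.76% (3.16 to 4.44) of 3590 cells in the IMQ library, 2.83-fold (2.35 to 3.43) lower. When each cell was thinned to 5000 UMIs, so that depth no longer differed, the rule chose 244 of 5828 control cells, 4.19% (3.69 to 4.73), and 44 of 3264 IMQ cells, 1.35% (0.981 to 1.81). At the unequal depth read, the libraries parted mainly at the exclusion of other fibroblasts. At least 3 marker UMIs were present in 19.7% of the gated control cells and 17.3% of the gated IMQ cells. Of those, 54.1% and 21.7% were kept. Pi16 left out 569 control and 369 IMQ cells, the dermal sheath genes 60 and 193, and Corin 2 and 0, some cells by more than 1 of these. Among all gated cells, at least 3 Pi16 UMIs were counted in 42.2% (41.0 to 43.4) of the control and 59.4% (57.8 to 61.1) of the IMQ library. The sheath genes reached 3 UMIs in 1.80% (1.5 to 2.14) and 9.42% (8.48 to 10.4). The deeper reading of IMQ cells bears on each of these fixed UMI limits. In gated cells thinned to 5000 UMIs, Axin2 was found in 10.7% of control and 3.02% of IMQ cells, Ntn1 in 39.5% and 30.7% and Apcdd1 in 3.21% and 1.39%. Col23a1 went the other way, with 3.29% and 5.37%. At equal depth the markers thus differed as well. Fewer papillary cells cannot be told apart here from papillary cells with less marker RNA, or with more Pi16 or sheath gene RNA.

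**Figure D1:**
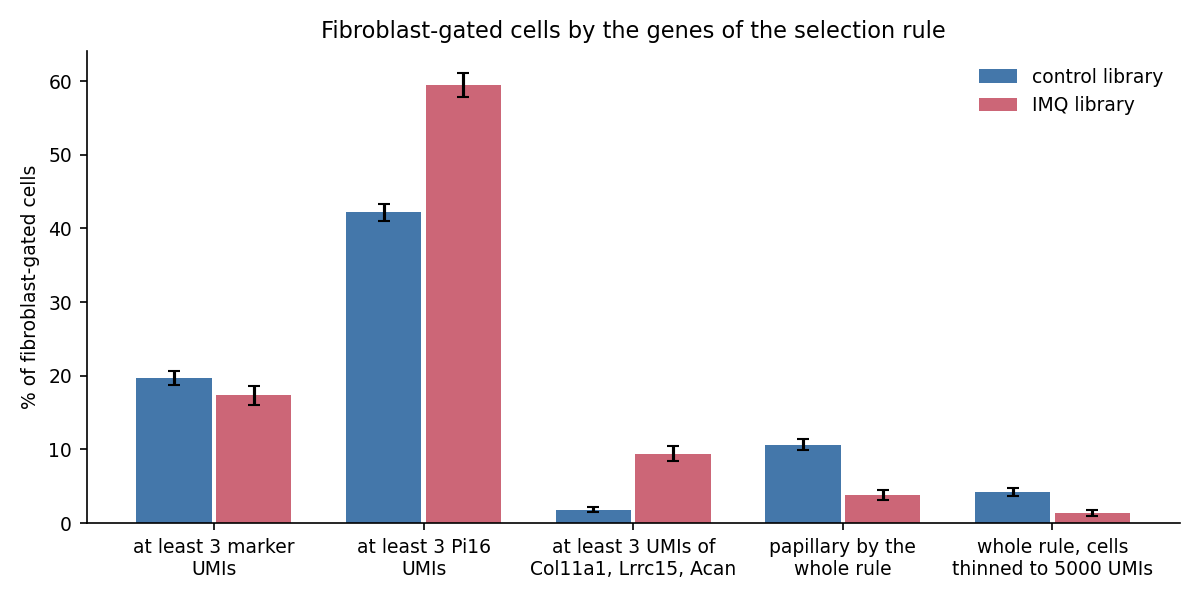
Share of the fibroblast-gated cells, in percent, that met each part of the selection rule, for the control library (blue) and the IMQ library (red), with exact 95% intervals as bars. Without thinning, cells with 3 marker UMIs differ little between the libraries, and cells with Pi16 or sheath gene UMIs are more frequent in the IMQ library. The share passing the whole rule is 10.6% against 3.76%.

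The limit of 3 marker UMIs ran through a continuum. Exactly 3 marker UMIs were held by 307 control members (41.8%) and 63 IMQ members (46.7%), and a further 597 control and 156 IMQ cells met every other condition with exactly 2. The 19 other papillary genes listed for this work, none of them used by the rule, summed to 899 UMIs per 1000000 (CPM) in the control members just inside the limit and 825 CPM in the control cells just outside it. In the IMQ library the sums were 919 and 841 CPM. Members with at least 5 marker UMIs stood higher, at 1608 and 2112 CPM, of which Crabp1, also a dermal papilla marker, gave 242 and 680 CPM.

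The chosen cells were carried mainly by Ntn1, which encodes netrin-1, a secreted guidance and survival factor for axons and vessels. A UMI of Ntn1 was found in 94.3% (92.3 to 95.8) of control members and 88.1% (81.5 to 93.1) of IMQ members, but also in 51.4% and 53.4% of the other gated cells. Axin2, a negative feedback regulator of Wnt signalling, was found in 66.8% (63.2 to 70.2) of control members and 36.3% (28.2 to 45.0) of IMQ members. Col23a1, a transmembrane collagen of papillary fibroblasts, went the other way, with 19.8% (16.9 to 22.8) and 43.7% (35.2 to 52.5). Apcdd1, a membrane inhibitor of Wnt signalling, was found in 22.6% (19.6 to 25.8) and 16.3% (10.5 to 23.6). The summed levels had the same order between the libraries. Ntn1 stood at 185 CPM in control and 139 CPM in IMQ members, Axin2 at 90.4 and 30.7 CPM, Col23a1 at 39.0 and 77.4 CPM and Apcdd1 at 22.9 and 13.8 CPM. These values chose the members and are a description only.

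After thinning to 5000 UMIs, Ntn1 was found in 63.6% of control and 50.4% of IMQ members, against 2.26% and 0.285% of keratin cells (cells outside the fibroblast gate with at least 1% of UMIs from Krt5 and Krt14) thinned alike. Axin2 was found in 35.7% and 15.3% of members, against 17.2% and 9.04% of keratin cells. Col23a1 was found in 10.9% and 32.1% of members and in 23.3% and 5.99% of keratin cells. In the control library keratin cells thus held it more often than members, and the part of keratinocyte RNA in the members' share was not tested.

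**Figure D2:**
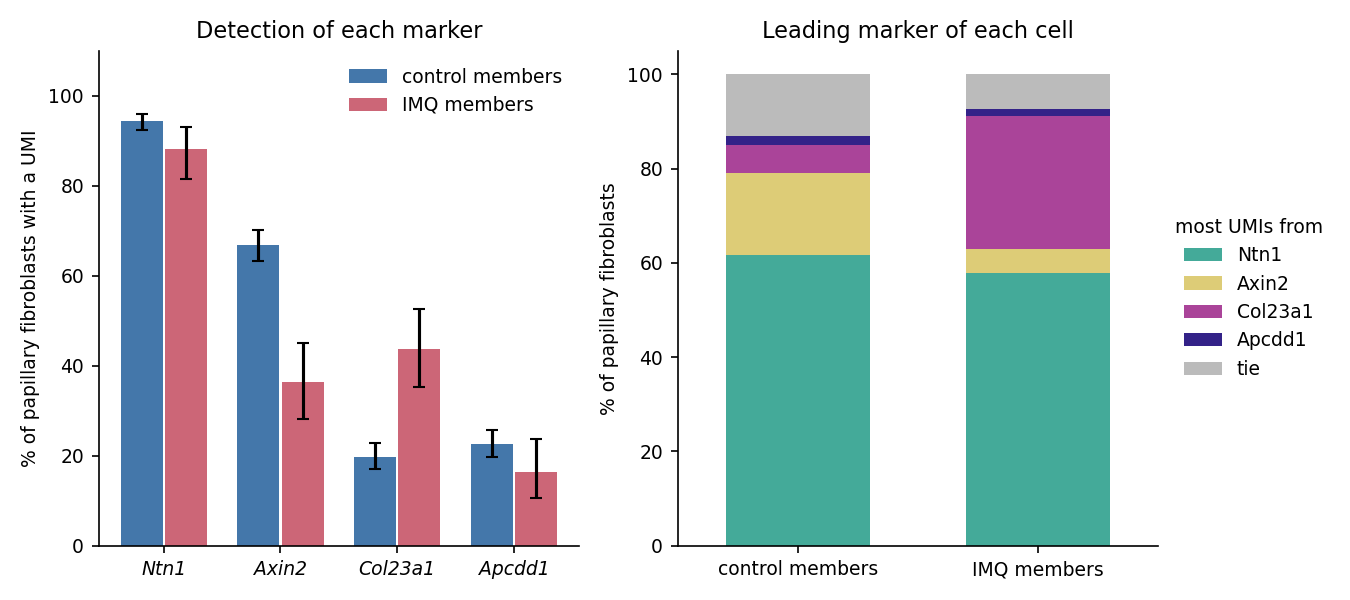
Left, percent of control members (blue) and IMQ members (red) with a UMI of each marker of the rule, with exact 95% intervals. Right, percent of members by the marker that gave most of their marker UMIs. Ntn1 leads in 61.6% and 57.8% of members, while Col23a1 leads in 5.99% of control and 28.1% of IMQ members and Axin2 in 17.4% and 5.19%.

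Genes outside the rule were compared between the members and the other fibroblast-gated cells of the same library, as a description of what the chosen cells share. Of 11768 genes with at least 50 UMIs in each library over members and other gated cells together, 126 (1.07%) were at least 2-fold higher in the members in both libraries and 198 (1.68%) at least 2-fold lower. Of the other papillary genes, 5 of 17 were higher in both, Nkd2, Crabp1, Rspo1, Prdm1 and Entpd1, and 0 lower, and their median log2 ratio was 1.18 in the control and 0.84 in the IMQ library. Crabp1, Wif1, Lef1 and Prdm1 stand both on this list and among the dermal papilla markers, so it does not tell the 2 cell types apart. Of the reticular and hypodermal fibroblast genes, 0 of 14 were higher and 7 lower, with medians of -1.58 and -1.11. The medians of all genes were 0.01 and -0.04. The papillary genes were not high in all members. In the control library they summed to 1037 CPM in Ntn1-led members (those with most marker UMIs from Ntn1), against 634 CPM in cells with 1 or 0 marker UMIs and 847 CPM in cells left out by Pi16. In the IMQ library Ntn1-led members, 78 of 135, held 725 CPM, beside 841 CPM in cells with exactly 2 marker UMIs, 695 CPM in cells with 1 or 0 and 881 CPM in cells left out by Pi16. Col23a1-led IMQ members held 2763 CPM, of which Crabp1 gave 975 CPM and Pdpn 699 CPM. The summed papillary genes outside the rule therefore do not set the Ntn1-led IMQ members apart from the cells it left out, and for these the papillary name rests on the rule alone. Cells left out for Pi16 or sheath genes are among the other gated cells, which bears on both lists.

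Of the 12 genes that stood highest in the members in both libraries, 9 are described first. Stc1, a secreted glycoprotein hormone, was 6.85-fold (6.49 to 7.23) higher in control members than in the other gated control cells and 21-fold (16.4 to 26.9) higher in IMQ members. In the IMQ library Ntn1-led members held 2.78 CPM of it, beside 2.78 CPM in the other gated cells, while the 38 Col23a1-led members held 205 CPM and the 7 Axin2-led members 221 CPM. Grem1, a secreted BMP antagonist, was 4.83-fold (4.65 to 5.02) and 12.6-fold (11.3 to 14.2) higher, with 36.1 CPM in Ntn1-led and 601 CPM in Col23a1-led IMQ members. Inhbb, the activin B subunit, was 4.78-fold (4.30 to 5.30) and 5.51-fold (4.66 to 6.49) higher. The gene a (agouti) was 3.05-fold (2.73 to 3.40) and 2.45-fold (2.09 to 2.85) higher, and it is a known product of dermal papilla and upper dermal fibroblasts. Its functional product switches follicular melanocytes from black to yellow pigment. Whether the RNA counted here gives a functional product was not tested. The retinoid genes Crabp1, a retinoic acid binding protein, and Cyp26b1, which breaks retinoic acid down, were 2.97- and 2.87-fold higher in the control and 7.54- and 3.53-fold higher in the IMQ library. The matrix glycoprotein Tnc, the phospholipase Pla2g2e and the lectin Lgals3 were 4.88-, 2.84- and 2.10-fold higher in the control and 3.83-, 4.63- and 2.49-fold higher in the IMQ library. A single cell gave a large part of the control members' UMIs of Tnc. Outside these 12, Prdm1 (Blimp1), a transcription factor described in papillary progenitors, was 4.09- and 2.64-fold higher.

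The other 3 of the 12 were keratinocyte genes. Krt10, the suprabasal keratin, was 2.23- and 5.16-fold higher in members, Krt1 2.21- and 7.27-fold and Fam25c, a gene of the differentiating epidermis, 2.28- and 14.4-fold. The summed level of 12 keratinocyte markers was 2625 CPM in control and 2269.8 CPM in IMQ members, against 1358 and 356 CPM in the other gated cells. At least 0.2% of UMIs came from markers of another cell type in 18 control members, 13 of them with keratinocyte markers, and in 5 IMQ members. Scrublet called 8 of those 18 doublets. Without these cells, 716 control and 130 IMQ members remained and the counts between members and other gated cells became 94 higher and 294 lower. In single cells, 688 of 759 IMQ UMIs of Krt10 and 744 of 768 of Krt1 came from the highest cell.

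The genes that stood lowest in the members were nearly unread there. The retinoic acid synthesising enzyme Aldh1a3 was 82.3-fold (35.2 to 254) lower in control members and 37.5-fold (10.4 to 310.2) lower in IMQ members than in the other gated cells. Smpd3, a neutral sphingomyelinase, was 78.1-fold (48.8 to 134) and 8.65-fold (5.85 to 13.4) lower, and the mitochondrial protein gene Efhd1 50.5-fold (27.4 to 105) and 10.7-fold (4.58 to 33.1) lower. Sfrp2, a secreted Wnt modulator abundant in deep dermal fibroblasts, stood at 9.77 CPM in control and 25.4 CPM in IMQ members, against 364 and 199.9 CPM in the other gated cells. Cells with at least 3 marker UMIs that were left out by Pi16 held 764 CPM of Sfrp2 in the control and 294 CPM in the IMQ library. Those that met every other condition with exactly 2 marker UMIs held 23.3 and 63.5 CPM. Efhd1 is also on the list of Pi16 progenitor markers. The exclusion of cells with Pi16 bears on both genes, and low Sfrp2 is not read as particular to the members.

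The members fell into unlike groups by the marker that led them. In the control library 452 were led by Ntn1, 128 by Axin2, 44 by Col23a1 and 14 by Apcdd1, and 96 had a tie. Among IMQ members 78 were led by Ntn1, 7 by Axin2, 38 by Col23a1 and 2 by Apcdd1, and 10 had a tie. The genes set side by side for these groups were picked after their values were seen, and the groups are described with no test. Crabp1 was high in the Col23a1-led cells of both libraries. It stood at 30.4 CPM in Ntn1-led and 964 CPM in Col23a1-led control members, a ratio of 31.7-fold (26.8 to 37.7), and at 27.8 and 975 CPM in the IMQ library, a ratio of 35.1-fold (25.4 to 49.7). Its level over all members was 97.3 CPM in the control and 288 CPM in the IMQ library, a log2 ratio of 1.57, while within the Ntn1-led members the log2 ratio was -0.13 and within the Col23a1-led members 0.02. In Axin2-led members Crabp1 stood at 34.3 CPM in the control (128 cells) and 221 CPM in the IMQ library (7 cells), and in members with exactly 3 marker UMIs at 20.9 and 96.6 CPM.

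In the control library the Col23a1-led members also held genes described in dermal papilla cells. The Wnt inhibitor Wif1 stood at 286 CPM there and 24.4 CPM in Ntn1-led members, the TCF/LEF factor Lef1 at 91.5 and 7.04 CPM, and Prdm1 at 106 and 23.6 CPM. The 11 dermal papilla markers found in the files hold Crabp1, Wif1, Lef1 and Prdm1, which are also among the listed papillary genes. The 11 markers summed to 1810.3 CPM in Col23a1-led and 299.9 CPM in Ntn1-led control members, and to 1405 and 488 CPM in the IMQ library. Corin, the marker by which the rule removes papilla cells, had 4 UMIs over all control members and 3 over all IMQ members.

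In the IMQ library the groups lay apart in further genes. Stc1 stood at 253 CPM in Ntn1-led and 458 CPM in Col23a1-led control members, and at 2.78 and 205 CPM in the IMQ library. Grem1 stood at 444 and 299.7 CPM in the control and at 36.1 and 601 CPM in the IMQ library, and Tnc at 37.8 and 39.9 CPM and at 126 and 1689 CPM. These genes lay within 2-fold between the groups in the control. For Tnc a single cell gave a large part of the control UMIs, and 2.82% of thinned control members had any. The likeness of the control groups in Tnc is therefore not read as a result. Stc1, Grem1 and Tnc were 73.7-fold (28.0 to 276), 16.6-fold (12.4 to 22.8) and 13.4-fold (11.4 to 15.8) higher in the Col23a1-led than in the Ntn1-led IMQ members. Other genes went the opposite way. The microfibril gene Mfap5 stood at 531 CPM in Ntn1-led and 45.3 CPM in Col23a1-led IMQ members, the secreted glutathione peroxidase Gpx3 at 2141 and 833 CPM, the B cell chemokine Cxcl13 at 734 and 82.8 CPM and the lubricating proteoglycan Prg4 at 657 and 171 CPM. Over single IMQ members, the UMIs of the reticular and hypodermal genes per 10000 ran from 5.85 at the 10th percentile to 118 at the 90th, with a median of 46.3. In control members they ran from 13.6 to 51.3, with a median of 26.3. The spread among the IMQ members was the wider.

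**Figure D3:**
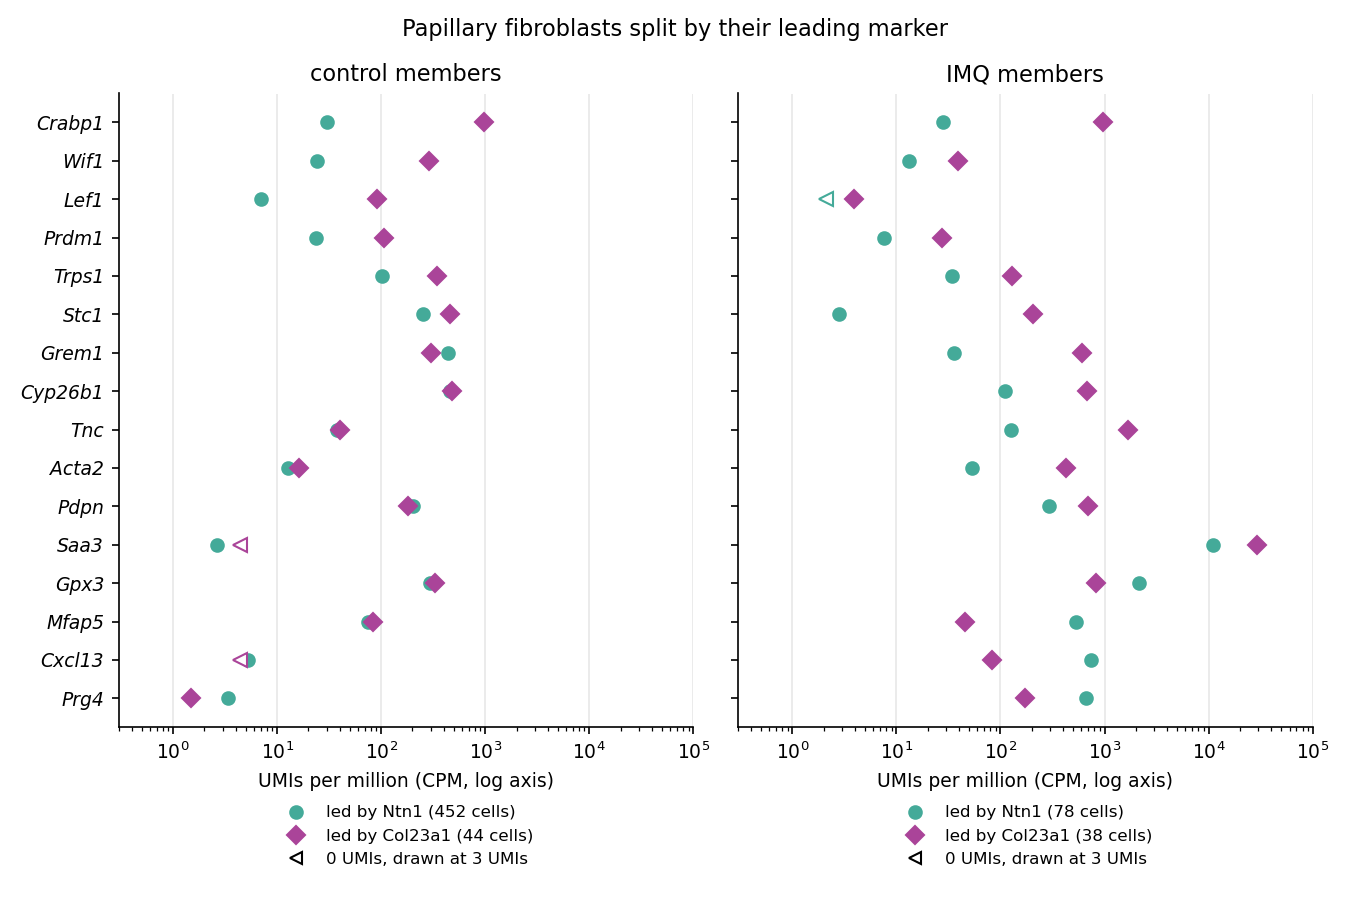
Level in CPM, on a log axis, of 16 genes in members led by Ntn1 (circles) and by Col23a1 (diamonds), in the control library (left) and the IMQ library (right). An open triangle marks a gene with 0 UMIs, drawn at the level of 3 UMIs. Crabp1 separates the groups in both libraries, while Stc1, Grem1, Tnc, Mfap5 and Cxcl13 separate them in the IMQ library. A single cell gave a large part of the control UMIs of Tnc.

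IMQ members were then set against control members over all genes. Of 9584 genes with at least 50 UMIs over both libraries, 895 (9.34%) were at least 2-fold higher in IMQ members and 525 (5.48%) at least 2-fold lower, and the median log2 ratio was 0.18. The balance of these counts depended on the scaling. With size factors that centre the median gene the counts were 624 higher and 703 lower, without the highest cell of each gene 734 and 719, and with cells thinned to 5000 UMIs and the rule applied again 261 and 353. At least 2-fold higher in IMQ members were 11 of 13 measured acute-phase, 9 of 9 chemokine, 11 of 13 complement and 11 of 14 cell cycle genes. Of the Wnt target genes and mediators, 8 of 18 were at least 2-fold lower. In the other gated cells the median, over genes with at least 50 UMIs there, was 0.24. The counts of each list below stand beside the shares of all genes, 9.34% higher and 5.48% lower.

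**Figure D4:**
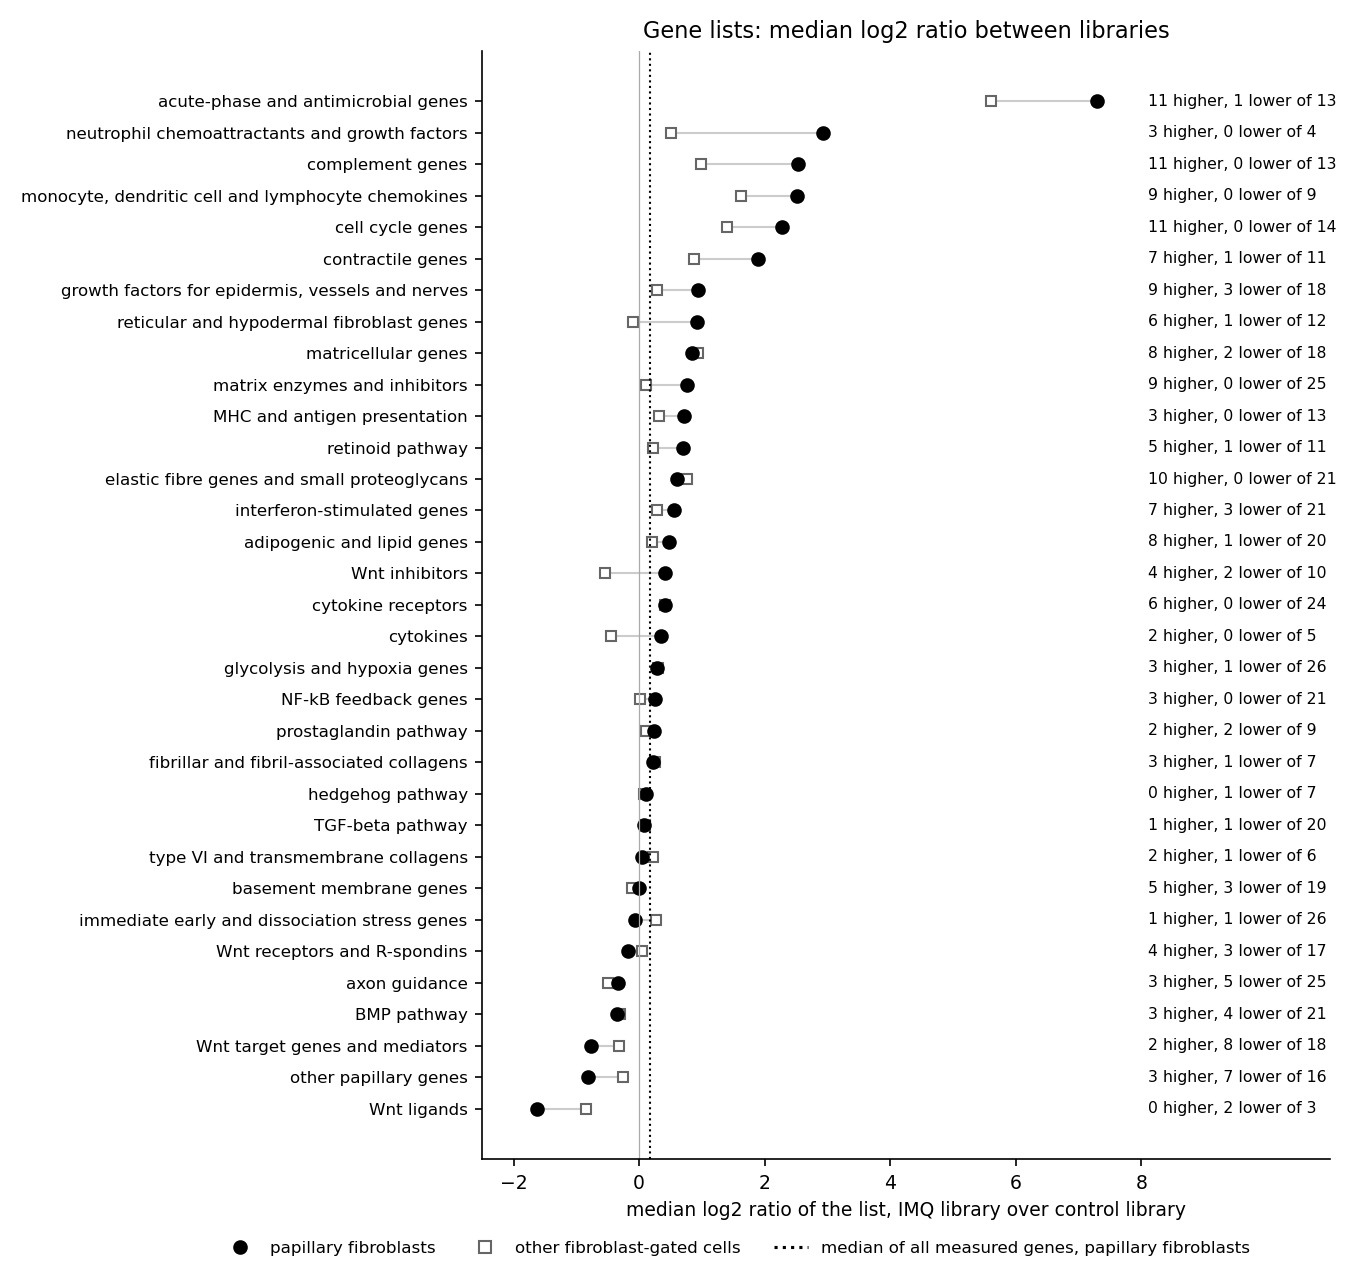
Median log2 ratio of each gene list with at least 3 measured genes, IMQ library over control library, in papillary fibroblasts (filled circles) and in the other fibroblast-gated cells (open squares). The dotted line is the median of all measured genes in papillary fibroblasts, 0.18, and the numbers at the right count members of the list at least 2-fold higher or lower. Acute-phase genes lie farthest to the right, at 7.29, and Wnt ligands farthest to the left, at -1.63.

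The Wnt ligand genes Wnt5a and Wnt11 stood lower in IMQ members. Of 17 Wnt genes, 3 reached 50 UMIs, and 2 of these were at least 2-fold lower, against the 5.48% of all genes, while the third, Wnt5b, had a log2 ratio of -0.04. Wnt5a, a ligand of the non-canonical branch, stood at 133 CPM in control and 24.9 CPM in IMQ members, 5.34-fold (4.09 to 7.11) lower, and was found in 41.5% and 12.2% of members thinned to 5000 UMIs. Wnt11, a ligand of the same branch, stood at 26.1 and 8.46 CPM, 3.08-fold (1.93 to 5.21) lower. The log2 ratio of Wnt5a was -4.06 in Ntn1-led and -0.69 in Col23a1-led members. The other gated cells stood at 56.4 and 16.4 CPM.

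Among Wnt receptors and R-spondins, 4 of 17 measured genes were higher, Fzd4, Lgr5, Rspo4 and Lgr4, and 3 lower, Rspo1, Fzd5 and Fzd8, with a median log2 ratio of -0.17. Rspo1, a secreted enhancer of Wnt signalling, stood at 98.8 and 34.7 CPM, 2.85-fold (2.26 to 3.63) lower in IMQ members, but its log2 ratio of -1.51 was -0.74 in members with at least 5 marker UMIs and -0.51 with cells thinned and chosen again. Fzd4, a Frizzled receptor, stood at 4.05 and 53.0 CPM, 13.1-fold (9.03 to 19.3) higher, and Lgr5, a receptor for R-spondins, at 16.3 and 73.9 CPM, 4.53-fold (3.62 to 5.67) higher. The list thus held genes of both directions. Of the Wnt inhibitors, secreted and membrane-bound, 4 of 10 were higher, Sfrp1, Dkk3, Sfrp2 and Sfrp4, and 2 lower, Notum and Dkk2. With cells thinned and chosen again, Sfrp4 had a log2 ratio of -1.81 and Sfrp1 of 0.81. Sfrp1 and Dkk3 stood 3.29- and 2.77-fold higher in IMQ members, at 82.3 and 115 CPM.

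Of the Wnt target genes and mediators, 8 of 18 were at least 2-fold lower in IMQ members and 2 higher, Lgr5 and Myc, with a median log2 ratio of -0.76 beside -0.33 in the other gated cells. The list summed to 1276 CPM in control and 1092 CPM in IMQ members. Lef1 stood at 12.1 CPM in control members (116 UMIs) and 1.78 CPM in IMQ members (4 UMIs), 6.77-fold (2.57 to 25.3) lower. Tcf7, its relative, stood at 21.7 and 6.23 CPM, 3.49-fold (2.03 to 6.49) lower. Both are transcription factors that carry the Wnt signal to DNA. The Wnt-induced receptor gene Tnfrsf19 stood at 36.5 and 7.12 CPM, 5.12-fold (3.11 to 9.06) lower, and the feedback inhibitor Nkd2 at 82.5 and 23.6 CPM, 3.50-fold (2.65 to 4.71) lower. Nkd1, another feedback inhibitor, was 2.04-fold (1.5 to 2.85) lower, but its log2 ratio was 0.40 when cells were thinned and chosen again. With cells thinned and chosen again, the log2 ratios of Tcf7 (-0.85), Tnfrsf19 (-0.88), Nkd2 (-0.89) and Sp5 (-0.39) also lay within 2-fold. Among members thinned without choosing again, Tnfrsf19 was found in 16.1% of control and 4.58% of IMQ cells. Keratin cells held it in 39.1% and 4.47%, and the part of keratinocyte RNA in its difference was not tested. The rule marker Axin2 belongs to the same group of targets. Ctnnb1, which encodes β-catenin itself, stood at 147 and 177 CPM, and the targets Twist1 and Cd44 had log2 ratios of -0.47 and 0.48.

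Sp5, a zinc-finger factor that canonical Wnt signalling induces directly in many tissues, stood at 13.8 CPM in control and 6.23 CPM in IMQ members, 2.22-fold (1.28 to 4.17) lower, against 2.24 and 0.188 CPM in the other gated cells. Its promoter is printed because it is a lower Wnt target with the TCF/LEF core motif CTTTGAT, shown in capitals, 104 bases before the annotated first exon. The stretch is the 250 bases before the RefSeq start of Sp5 (chr2:70474673-70474922, + strand, GRCm38.p6, read 5′ to 3′ on the gene's strand).
Sp5: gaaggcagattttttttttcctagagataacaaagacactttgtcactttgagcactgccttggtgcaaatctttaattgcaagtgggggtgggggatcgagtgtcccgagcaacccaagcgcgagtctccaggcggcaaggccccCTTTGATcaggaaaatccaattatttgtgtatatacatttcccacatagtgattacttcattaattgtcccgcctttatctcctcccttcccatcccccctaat
Promoter entries existed in the RefSeq table for 6 of the 8 lower Wnt target genes, and CTTTGAT on either strand was found in those of 2, Sp5 and Tnfrsf19. It was found in 3.21% of all 32851 windows of that length and in at least 1 window of 3.72% of 27025 genes. A match describes the letters only and does not show a bound site.

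Other papillary genes went both ways, with 7 of 16 measured genes lower, 3 higher, Fap, Crabp1 and Pdpn, and a median log2 ratio of -0.82, which was 0.15 when cells were thinned and chosen again. The lower genes include Lef1, Nkd1, Nkd2 and Rspo1, which are counted above among the Wnt genes too. Prdm1 stood at 30.9 and 13.8 CPM, 2.24-fold (1.54 to 3.35) lower in IMQ members, but its log2 ratio of -1.16 was -0.62 with at least 5 marker UMIs and -0.08 with cells thinned and chosen again. Fap, fibroblast activation protein, stood at 5.61 and 28.0 CPM, 5.00-fold (3.42 to 7.32) higher, and Pdpn, podoplanin, at 199 and 410.4 CPM, 2.06-fold (1.90 to 2.23) higher, with a log2 ratio of 0.53 in Ntn1-led members. Both are surface proteins described in activated fibroblasts. Twist2, a fibroblast transcription factor, stood at 152 and 163 CPM. Reticular and hypodermal genes stood higher in 6 of 12 and lower in 1, Dpp4, with a median of 0.91, which was -0.14 after thinning and choosing again. Plac8 stood at 19.1 and 265 CPM, Mgp, an inhibitor of calcification, at 36.5 and 300.4 CPM and Gpx3 at 264 and 1697 CPM. The other gated cells held more of each in both libraries, with 268 and 569.6 CPM of Plac8 and 1459 and 2852 CPM of Gpx3.

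The BMP ligand genes Bmp4 and Bmp2 stood lower in IMQ members. Bmp4 stood at 61.4 and 14.2 CPM, 4.31-fold (3.02 to 6.36) lower, and Bmp2 at 62.4 and 17.4 CPM, 3.59-fold (2.60 to 5.10) lower. Both encode signals known to hold hair follicles at rest. Their antagonist Grem1 was lower as well, at 494 and 213 CPM (log2 ratio -1.21, or -0.31 with cells thinned and chosen again), while Chrdl1, another BMP antagonist, was higher, at 7.79 and 54.3 CPM. Id3, a direct BMP target, stood at 637 and 664 CPM. Over the whole pathway 3 of 21 genes were higher, Chrdl1, Fstl1 and Fst, and 4 lower, Bmp4, Bmp2, Grem1 and Bambi. Of all measured genes 9.34% were higher and 5.48% lower.

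TGF-beta pathway genes were nearly all within 2-fold, with 1 of 20 higher and 1 lower. The higher gene was Postn, periostin, at 113 and 614 CPM, 5.41-fold (5.00 to 5.86), and the lower gene was Tgfbi, a TGF-beta induced matrix protein, at 1105 and 289.7 CPM, 3.81-fold (3.52 to 4.13). The pathway's targets Ctgf and Cyr61 had log2 ratios of 0.85 and 0.07. In the hedgehog pathway 0 of 7 genes were higher and 1 lower, the co-receptor Cdon, at 64.3 and 28.5 CPM. The hedgehog target Ptch1 stood at 17.5 and 28.5 CPM, with 24 of its 64 IMQ UMIs in 1 cell.

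Of the retinoid genes 5 of 11 were higher, Rarres2, Crabp1, Rbp4 and Crabp2 among them, and 1 lower. Rarres2, which encodes the chemoattractant chemerin, stood at 769.7 and 2652 CPM, 3.44-fold (3.33 to 3.56) higher. The retinaldehyde dehydrogenase Aldh1a1, which makes retinoic acid, stood at 160.0 and 43.6 CPM, 3.67-fold (2.99 to 4.55) lower. Among axon guidance genes, the family to which the marker Ntn1 belongs, 3 of 25 were higher, Epha3 and Sema3c among them, and 5 lower, Robo1, Sema3b, Nrp2, Ntn4 and Slit2. The shares over all measured genes were 9.34% higher and 5.48% lower. The Slit receptor gene Robo1 stood at 42.0 and 10.2 CPM, the semaphorin co-receptor gene Nrp2, at 127 and 48.5 CPM, and Sema3b, at 140.4 and 50.7 CPM. With cells thinned and chosen again, Nrp2 (-0.73) and Sema3b (-0.44) lay within 2-fold.

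Several of the lowest genes encode hormones, growth factor carriers and stress proteins. Igfbp2, a carrier of insulin-like growth factors, stood at 487 CPM in control and 6.68 CPM in IMQ members, 73.0-fold (44.2 to 130.5) lower, and was found in 25.5% and 3.82% of thinned members. In the control library it was highest in Col23a1-led members, at 1385 CPM, beside 377 CPM in Ntn1-led members. Gal, the neuropeptide galanin, stood at 78.8 and 1.78 CPM, 44.2-fold (17.2 to 163) lower, but its log2 ratio of -5.47 was -0.75 with cells thinned and chosen again. Gpha2, a glycoprotein hormone subunit, stood at 81.7 CPM in control members and had 0 UMIs in IMQ members, 61.2-fold lower against a floor of 3 counts per library. Stc1 stood at 288 and 58.3 CPM, 4.94-fold (4.14 to 5.93) lower, and Aldh3a1, an aldehyde dehydrogenase, at 155 and 8.90 CPM, 17.4-fold (11.3 to 28.6) lower. The cadherin Cdh4, the long noncoding RNA Miat and the stress regulator Nupr1 were 5.13-, 9.95- and 4.16-fold lower. The keratinocyte genes Krt77 and Serpinb2 ranked among the lowest too. Krt77 had 4118 UMIs in control members, 1238 of them in 1 cell, and 0 in IMQ members. Its log2 ratio against the floor was -8.32 with all members and -3.99 without those that held another cell type's markers.

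**Figure D5:**
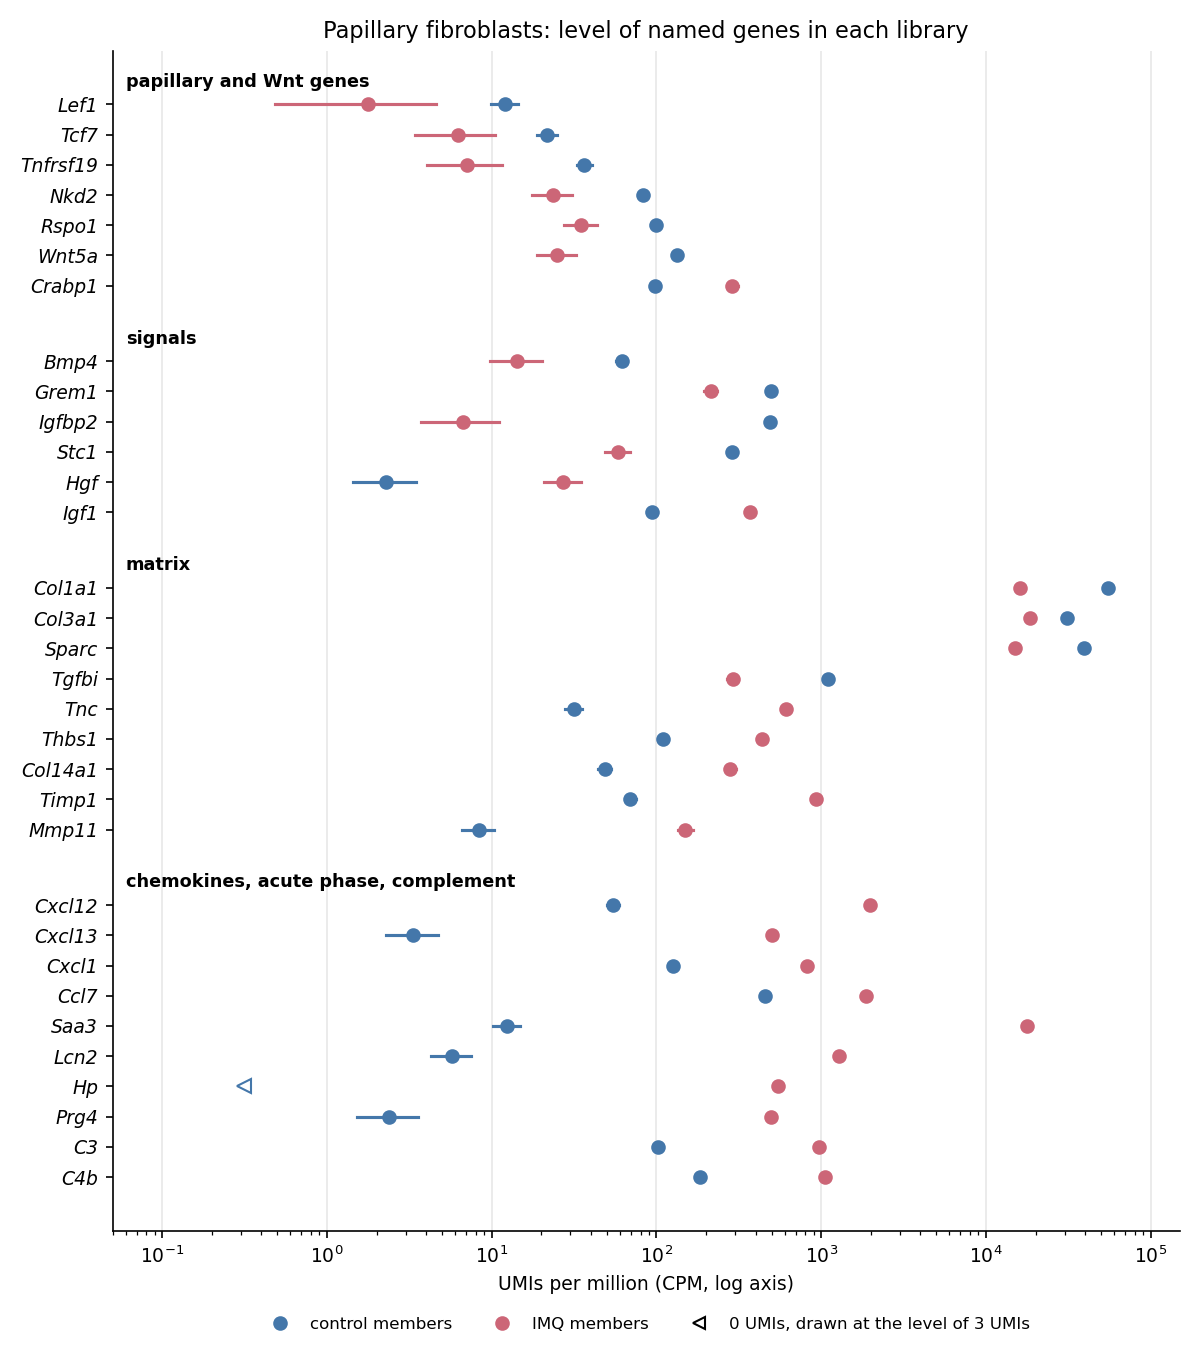
Level in CPM, on a log axis, of named genes summed over control members (blue) and IMQ members (red), with exact 95% Poisson intervals as bars where they are wider than the point. An open triangle marks a gene with 0 UMIs, drawn at the level of 3 UMIs. The Wnt genes shown, Igfbp2 and the collagens Col1a1 and Col3a1 lie lower in IMQ members, and chemokine, acute-phase and complement genes higher.

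The collagens that make the bulk of the dermal matrix stood lower in IMQ members. Col1a1 stood at 54957 CPM in control and 16059 CPM in IMQ members, Col1a2 at 66478 and 18577 CPM, and Col3a1 at 31180.4 and 18551 CPM. These 3 genes and Dcn, at 10919.9 and 14623 CPM, set the fibroblast gate, and their levels are a description. Sparc, a collagen-binding glycoprotein outside the rule, stood at 39545 and 15039.7 CPM, 2.63-fold (2.60 to 2.66) lower. These few genes take a large part of each library, and the 50 highest genes held 38% of control and 28.5% of IMQ members' UMIs. The CPM of every other gene is relative to totals that hold these genes.

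Among other fibrillar and fibril-associated collagens, 3 of 7 were higher, Col12a1, Col14a1 and Col27a1, and 1 lower. Col12a1 and Col14a1, which sit on the surface of collagen fibrils, stood at 6.24 and 66.8 CPM and at 48.6 and 280.4 CPM, 10.7-fold (7.89 to 14.7) and 5.77-fold (5.11 to 6.51) higher. Col16a1 stood at 382 and 151 CPM, 2.53-fold (2.26 to 2.83) lower. The basement membrane genes, of interest for cells that border the epidermis, split into 5 higher, Nid2, Col4a3, Col4a2, Col4a4 and Col4a1, and 3 lower of 19. Col4a1 and Col4a2, the main type IV collagen chains, were 2.24-fold (2.09 to 2.40) and 2.66-fold (2.42 to 2.91) higher. Col15a1, Col4a5 and the laminin chain gene Lamc3 were 2.75-, 7.41- and 2.83-fold lower. With cells thinned and chosen again, the log2 ratios of Col14a1 (0.28), Col16a1 (-0.51), Col4a1 (0.23), Col4a2 (0.53) and Lamc3 (-0.23) lay within 2-fold, and that of Col16a1 was -0.58 with at least 5 marker UMIs.

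Of the elastic fibre genes and small proteoglycans, 10 of 21 were higher and 0 lower. Efemp2, needed for elastic fibre assembly, stood at 40.3 and 248 CPM, 6.15-fold (5.39 to 7.02) higher, and the fibrillin gene Fbn2 at 8.42 and 54.3 CPM, 6.45-fold (4.83 to 8.65) higher. Ogn, osteoglycin, stood at 108 and 547 CPM. Of the matricellular genes, which encode matrix proteins that signal to cells, 8 of 18 were higher and 2 lower, Sparc and Wisp1, and the list's median of 0.85 became -0.03 after thinning and choosing again. Tnc stood at 31.4 and 610.2 CPM, 19.4-fold (17.2 to 22.1) higher, although 135 of its 302 control UMIs came from 1 cell. It was found in 2.82% of control and 43.5% of IMQ members after thinning. Thbs1, thrombospondin-1, stood at 109 and 435 CPM, 3.99-fold (3.65 to 4.35) higher, with a log2 ratio of 0.77 when cells were thinned and chosen again.

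Matrix enzymes and their inhibitors were higher in 9 of 25 and lower in 0. The list's median log2 ratio was 0.76, or 0.12 with cells thinned and chosen again and 0.19 in Ntn1-led members. Timp1, an inhibitor of metalloproteinases, stood at 69.2 and 924 CPM, 13.3-fold (12.2 to 14.6) higher, and was found in 22.7% and 84.0% of thinned members. Its relative Timp2 stood at 2371 and 1743 CPM. The metalloproteinase Mmp11 was 18.0-fold (14.1 to 23.3) higher, Adamts15 14.8-fold (10.6 to 21) and Mmp3 2.04-fold (1.96 to 2.12), or a log2 ratio of 0.14 in Ntn1-led members, while Mmp2 stood at 1821 and 1823 CPM.

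Contractile genes stood higher in 7 of 11 and lower in 1, Des, but few cells carried them. Acta2, smooth muscle actin, stood at 11.1 and 131 CPM, with 207 of 294 IMQ UMIs in 1 cell. Its log2 ratio was 3.56 with all members, 1.96 without members holding another type's markers and -0.74 after thinning and choosing again. Tagln, which encodes transgelin, stood at 16.3 and 85.0 CPM, with 112 of 191 IMQ UMIs in 1 cell, and its log2 ratio was -0.75 after thinning. After thinning, 5.08% of control and 7.63% of IMQ members had a UMI of Acta2. The 9 pericyte and smooth muscle markers summed to 63.9 and 80.6 CPM, and 1 IMQ member held at least 0.2% of its UMIs from them.

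Growth factor genes for epidermis, vessels and nerves were higher in 9 of 18 and lower in 3, Pdgfc, Pdgfa and Bdnf. The list's median log2 ratio was 0.94, or 0.62 with cells thinned and chosen again and 0.29 in Ntn1-led members. Igf1, insulin-like growth factor 1, stood at 94 and 370.3 CPM, 3.94-fold (3.58 to 4.33) higher, and Hgf, hepatocyte growth factor, at 2.29 and 27.1 CPM, 11.9-fold (7.19 to 20.3) higher. Fgf7, the keratinocyte growth factor, stood at 39.0 and 66.3 CPM. Ereg, an EGF receptor ligand, stood at 4.78 and 38.3 CPM, with 35 of 86 IMQ UMIs in 1 cell. Pdgfc, a platelet-derived growth factor, was 4.18-fold (2.15 to 9.30) lower, at 16.7 and 4.01 CPM.

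Every measured chemokine for monocytes, dendritic cells and lymphocytes was at least 2-fold higher in IMQ members, 9 of 9, with a median log2 ratio of 2.52 beside 1.62 in the other gated cells. Cxcl12, which retains and attracts leukocytes through CXCR4, stood at 54.5 CPM in control and 1988 CPM in IMQ members, 36.5-fold (33.3 to 40.0) higher. After thinning it was found in 12.8% of control and 87.0% of IMQ members, beside 8.37% and 8.66% of keratin cells. Cxcl13 stood at 3.33 and 503 CPM, 151-fold (107 to 222) higher, and Cxcl14 at 26.0 and 389.9 CPM, 15-fold (13.0 to 17.3) higher. The monocyte chemokines Ccl2, Ccl7 and Ccl8 were 4.03-fold (3.77 to 4.31), 4.09-fold (3.92 to 4.27) and 6.73-fold (5.81 to 7.82) higher. Over single cells, the chemokines of the list gave a median of 1.98 UMIs per 10000 in control members, of which 160 had none, and 42.0 in IMQ members, of which 1 had none. The 14 leukocyte markers found in the files summed to 11.1 CPM in control and 43.2 CPM in IMQ members, with 2 and 4 of them at 0, and their part in these differences was not tested.

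Neutrophil chemoattractants and growth factors were higher in 3 of 4, Cxcl5, Cxcl2 and Cxcl1, and lower in 0. Cxcl1 stood at 126 and 825 CPM, 6.54-fold (6.08 to 7.03) higher, and Cxcl2 at 13.9 and 124 CPM, 8.89-fold (7.20 to 11) higher. Both recruit neutrophils through CXCR2. The other gated cells held more, 1089 and 1648 CPM of Cxcl1. Of the cytokines 2 of 5 measured were higher, Il33 and Il6, and 0 lower, with a list median of 0.35. Il6, an inflammatory cytokine, stood at 77.1 and 290.2 CPM, 3.76-fold (3.38 to 4.19) higher, and Il33, a nuclear alarmin, at 3.95 and 190.5 CPM, 48.2-fold (34.6 to 69.1) higher, with 153 of 428 IMQ UMIs in 1 cell. Among cytokine receptors 6 of 24 were higher and 0 lower, among them Il1r1, at 52.9 and 130.4 CPM (log2 ratio 0.78 with cells thinned and chosen again), and the oncostatin M receptor gene Osmr, at 22.3 and 70.8 CPM.

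Acute-phase and antimicrobial genes differed most. Of 13 measured, 11 were at least 2-fold higher in IMQ members and 1 lower, Orm1 (log2 ratio 0.0675 in Ntn1-led members), with a median log2 ratio of 7.29 beside 5.61 in the other gated cells. The median of 7.29 is the ratio of S100a9, which was found in 10.7% of thinned IMQ members and 59.4% of IMQ keratin cells. The list's median was 6.20 without members holding another type's markers, 6.19 without the highest cell of each gene and 5.85 with free RNA subtracted. In Ntn1-led members it was 6.35, and with cells thinned and chosen again 3.34. Saa3, a serum amyloid A that is made outside the liver, lies at chr7:46711998-46715700, − strand (GRCm38, GENCODE). It stood at 12.4 CPM in control members (119 UMIs, 88 of them in 1 cell) and 17623 CPM in IMQ members (39596 UMIs), 1425-fold (1191 to 1721) higher. After thinning it was found in 0.705% of control and 73.3% of IMQ members, beside 0.226% and 6.37% of keratin cells. Lcn2, lipocalin-2, which starves bacteria of iron, stood at 5.72 and 1273 CPM, 223-fold (171 to 296) higher. Lbp, which presents bacterial lipopolysaccharide, stood at 30.0 and 385 CPM, 12.8-fold (11.2 to 14.7) higher, and Prg4, which is not on the list, at 2.39 and 497 CPM, 208-fold (138 to 329) higher. Hp, the haemoglobin scavenger haptoglobin, had 0 UMIs in control members and 1235 in IMQ members, 1763-fold higher against a floor of 3 counts. Of these UMIs 556 lay in 1 cell, and 14.5% of thinned IMQ members had any.

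The acute-phase genes were spread unevenly over the IMQ members. Their UMIs per 10000 ran from 6.34 at the 10th percentile through a median of 63.9 to 594 at the 90th, and in control members from 0 through 1.09 to 3.76. The 90th percentile of control members thus lay below the 10th of IMQ members. Saa3 stood at 11039.5 CPM in Ntn1-led and 29139 CPM in Col23a1-led IMQ members. S100a8, a neutrophil and keratinocyte alarmin, stood at 0.312 and 104 CPM, but 200 of its 234 IMQ UMIs lay in 1 cell. The 10 neutrophil markers, of which S100a8 is one, summed to 11.7 CPM in control and 190.5 CPM in IMQ members, and their part in the S100a8 difference was not tested. A gene model named Flg, Stfa3 and BC100530, which ranked among the highest ratios, had 315 of 316, 183 of 187 and 415 of 457 IMQ UMIs in 1 cell each. Fcgr2b, an inhibitory receptor for antibodies, was less bound to 1 cell, with 0.935 and 77.0 CPM and 18 of 173 IMQ UMIs in the highest cell, and it stood at 260.1 CPM in Col23a1-led and 14.6 CPM in Ntn1-led IMQ members.

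The promoters of Saa3 and Saa1 are printed because these genes had some of the largest ratios of the list. They hold a match to TTGCNNAA, a core of the C/EBP motif, on either strand, in capitals. C/EBP factors are known inducers of acute-phase genes. The stretches end before the first annotated exon base, are read 5′ to 3′ on the gene's strand and are credited to RefSeq, GRCm38.p6. That of Saa3 covers chr7:46715701-46715926, − strand, with the match, TTATGCAA, 75 bases before the exon, and that of Saa1 chr7:46742981-46743230, − strand, with TTGCACAA, 182 bases before it.
Saa3: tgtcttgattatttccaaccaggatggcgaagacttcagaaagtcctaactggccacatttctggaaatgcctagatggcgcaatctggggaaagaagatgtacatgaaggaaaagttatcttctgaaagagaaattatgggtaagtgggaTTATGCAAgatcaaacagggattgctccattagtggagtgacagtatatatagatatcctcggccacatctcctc
Saa1: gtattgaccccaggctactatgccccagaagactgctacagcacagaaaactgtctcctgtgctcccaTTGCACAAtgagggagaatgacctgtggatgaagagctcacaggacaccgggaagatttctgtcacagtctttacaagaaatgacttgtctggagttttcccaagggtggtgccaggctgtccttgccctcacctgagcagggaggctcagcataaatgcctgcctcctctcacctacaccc
Of the 11 higher genes of the list, 8 had a promoter entry, and the 250 bases before the RefSeq start held TTGCNNAA on either strand in 7, Cp, Lcn2, S100a9, Saa1, Saa3, Slpi and Steap4. For this count the windows were not cut at annotated exons. Lcn2 was also meant to be printed, but its window held no match before the first annotated exon. The motif was found in 9.56% of all windows and in at least 1 window of 10.8% of 27025 genes. Saa1 itself had 0 UMIs in control members and 162 in IMQ members, 72.1 CPM, 231-fold higher against a floor of 3 counts. Reads could not be assigned with certainty between Saa1 and its near-identical neighbour Saa2. Cebpb, which encodes C/EBP-beta, stood at 908 and 887 CPM.

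Complement genes were higher in 11 of 13 and lower in 0, and the list's median log2 ratio was 2.52 beside 0.98 in the other gated cells. C3, the central component, stood at 102 and 973 CPM, 9.53-fold (8.83 to 10.3) higher, and was found in 14.7% and 74.8% of thinned members. C4b stood at 184 and 1061 CPM, 5.76-fold (5.41 to 6.12) higher, and factor B, Cfb, at 1.87 and 96.6 CPM, 51.6-fold (31.9 to 88.8) higher. The regulator Serping1, which holds the cascade back, was 2.07-fold (2.00 to 2.15) higher, or a log2 ratio of 0.75 with cells thinned and chosen again. In the control library the other gated cells held 981 CPM of C3, 9.60 times the level of the members, and in the IMQ library 1934 CPM, 1.99 times.

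Interferon-stimulated genes were divided, with 7 of 21 higher and 3 lower, Usp18, Ifit1 and Irf1. Ifi27l2a stood at 42.1 and 311 CPM, 7.39-fold (6.53 to 8.37) higher, and the GTPase gene Iigp1 was 2.72-fold (2.05 to 3.58) higher, though its log2 ratio was -1.66 in members with at least 5 marker UMIs. Ifit1 and Usp18, both induced by type I interferon, were 3.19-fold (1.95 to 5.56) and 3.49-fold (2.07 to 6.33) lower, with 94 of 232 control UMIs of Ifit1 in 1 cell and a log2 ratio for it of 0.20 in members with at least 2 of the 4 markers, and Irf1 was 2.18-fold (1.97 to 2.42) lower. Antigen presentation genes were higher in 3 of 13, H2-Q7, Cd74 and Psmb9, though Cd74 had a log2 ratio of -0.69 without members holding another type's markers, and lower in 0. The class I gene H2-K1 stood at 512 and 839 CPM and B2m, the light chain of class I molecules, at 711 and 1242 CPM, both within 2-fold. Reads of H2-Q7, at 17.9 and 88.1 CPM, may be shared with other class I genes, and its log2 ratio was 0.86 in Ntn1-led members.

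Cell cycle genes were higher in 11 of 14 and lower in 0, and the list's median log2 ratio was 2.27, or 0.69 with cells thinned and chosen again. Mki67 and Top2a, which mark dividing cells, had 17 and 5 UMIs in control members and 55 and 68 UMIs in IMQ members, 13.9-fold (7.92 to 25.5) and 58.2-fold (23.8 to 185) higher in CPM. Their highest IMQ cells gave 21 and 27 of these UMIs, and 0.282% of control and 3.82% of IMQ members had a UMI of Mki67 after thinning. Stmn1, a microtubule regulator of dividing cells, stood at 13.4 and 67.2 CPM.

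The series concerns fat cell formation in the dermis, and the adipogenic and lipid genes were higher in 8 of 20 and lower in 1, Scd1. Apod, an apolipoprotein, stood at 198 and 1814 CPM, 9.18-fold (8.69 to 9.70) higher, and Lpl, lipoprotein lipase, at 62.5 and 413 CPM, 6.61-fold (5.96 to 7.34) higher. Plin2, a coat protein of lipid droplets, was 5.16-fold (4.32 to 6.18) higher. Fabp5, a fatty acid binding protein that keratinocytes also make, stood at 92.6 and 489.6 CPM, with 928 of 1100 IMQ UMIs in 1 cell and a log2 ratio of 0.14 without the highest cell of each library. The 8 markers of mature adipocytes summed to 0.208 CPM in control and 1.34 CPM in IMQ members, with 6 of the 8 at 0 in each library.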

How the data were processed

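Raw UMI counts per gene and barcode were used as deposited by the authors, in a 10x matrix for each library. The matrices name Cell Ranger 5.0.0, per the file headers. The tools named per the submitters' processing notes are Seurat 2.0 and Cell Ranger 3.0.2, with the mm10 build. Cells came from collagenase D and DNase digestion with dead cells removed, per the labels' protocols, and listed barcodes had at least 500 UMIs.

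UMIs were summed over the members of each library and scaled to CPM by the members' total, in Python 3.11.15 with numpy 2.4.6, scipy 1.17.1 and pandas 2.3.3. CPM have exact Poisson, shares Clopper-Pearson and ratios conditional binomial intervals. Genes with at least 50 UMIs over both libraries counted as measured, a ratio of at least 2-fold as higher or lower, and 0 UMIs as a floor of 3 counts per library. Thinning drew 5000 UMIs per cell and left out shallower cells, 709 control and 131 IMQ members remaining for shares of cells. Doublets were called with Scrublet in scanpy 1.11.5 (422 control cells, 110 IMQ cells) and kept, except as an alternative. The counting was tested on simulated data. Gene positions are from GENCODE M21, with 27645 of 27998 gene IDs matched, and promoters from RefSeq.

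Genes were named by rule, as the 12 highest and 12 lowest of those with at least 100 UMIs and 50 CPM, in order of the interval end closest to a ratio of 1, the 12 highest and 8 lowest within libraries (for the lowest, the limit of 100 UMIs was set on all gated cells of each library, a departure from the planned limit on members, which had few), up to 4 extreme and 3 abundant genes of each of 33 lists, and rule, gate and marker genes. Genes of mitochondria, ribosomal proteins and haemoglobin could not be named. Genes behind a count of 5 or fewer are also listed by name, except a few that are not reported here. Tcf7, Sp5, Trps1, Nkd1, Mki67, Top2a, Hgf, Lbp and Entpd1 were chosen after their values were seen. Of 692 list genes 9 were not matched. Members and lists were chosen with earlier results of these data known. The alternatives without members holding another type's markers and with Ntn1-led members alone were also added after seeing the data.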

Additional observations from a re-analysis of the deposited data

How the results depend on the processing

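No paired analysis was possible because each condition had 1 library. The share of members kept its direction under every alternative run, with log2 ratios from -1.5 to -1.81, the last with at least 2 of the 4 markers detected (8.38% against 2.40%). The number of genes at least 2-fold higher in IMQ members was 895. It was 510 with at least 5 marker UMIs, 261 with cells thinned to 5000 UMIs, 366 and 2227 with genes measured from 200 UMIs and from 1 UMI, and 1355 with free RNA subtracted. The number lower was 525, and 249 and 929 with those measuring limits. The fewer or more genes measured set part of these counts. Genes higher in members than in the other gated cells in both libraries numbered 126, and 261 with at least 5 marker UMIs and 205 with at least 2 markers. For these, the cause was not tested. Among named genes at least 2-fold apart, log2 ratios that changed sign were, with thinned cells, those of Sfrp4 (-1.81), Nkd1 (0.40), Tagln (-0.75), Acta2 (-0.74) and Adm (-0.95), and, in Ntn1-led members, those of Crabp1 (-0.13), Krt10 (0.0024), Orm1 (0.067) and Cd74 (-2.83). So did those of Cd74 (-0.69) and Ptgs1 (0.24) without members holding another type's markers, of Cd74 (-0.56) without its highest cell, of Iigp1 (-1.66) with at least 5 marker UMIs and of Ifit1 (0.20) with at least 2 markers. Of the named genes at least 2-fold apart between libraries, 31 of 115 with a value fell within 2-fold or changed sign with thinned cells, 14 of 130 with at least 5 marker UMIs, 13 of 135 in Ntn1-led members, 12 of 136 both with at least 2 markers and with cells weighted equally, 7 of 136 with size factors, 5 of 134 with free RNA subtracted, 4 of 134 without members holding another type's markers, 3 of 135 without the highest cell and 1 of 136 without Scrublet doublets. Without Scrublet doublets, without members holding another type's markers, in Ntn1-led members and with cells weighted equally, the counts between libraries stayed within 1.5 times. With the thinned cells choosing members again, 244 control and 44 IMQ cells remained, so values there rest on less depth. Depth limits the IMQ members most: at their total the floor of 3 counts, used for a gene with 0 UMIs, stands at 1.34 CPM.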

Other observations

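Lists not described above moved less, or without a common direction, in papillary fibroblasts. Their counts stand beside 9.34% higher and 5.48% lower over all measured genes. Prostaglandin genes were higher in 2 of 9, Ptgs2 and Ptges, and lower in 2, Ptgs1 and Hpgd, though Ptgs1 had a log2 ratio of 0.24 without members holding another type's markers. Ptgs2, the inducible cyclooxygenase, stood at 42.9 CPM in control and 260.4 CPM in IMQ members, 6.07-fold (5.34 to 6.90) higher, while the other fibroblast-gated cells stood at 764 and 397 CPM. Hpgd, which breaks prostaglandins down, was 2.06-fold (1.78 to 2.39) lower. NF-kB feedback genes were higher in 3 of 21, Ptgs2, Sod2 and Nfkbie, and lower in 0. Sod2, a mitochondrial superoxide dismutase, was 2.96-fold (2.65 to 3.30) higher, while the inhibitors Nfkbia and Tnfaip3 had log2 ratios of 0.26 and -0.39.

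Of the immediate early and dissociation stress genes, which rise during tissue digestion, 1 of 26 was higher, the heat shock gene Dnajb1 at 142 and 467 CPM, and 1 lower, Nr4a2 at 148 and 57.9 CPM. Fos and Jun had log2 ratios of 0.37 and 0.65. Of the glycolysis and hypoxia genes, 3 of 26 were higher, Adm, Hk2 and Ldha, though Adm had a log2 ratio of -0.95 with cells thinned and chosen again, and 1 lower. These counts lie near the shares of all genes, 9.34% and 5.48%, and are not read as a result about the list. Hk2, a hexokinase, was 2.40-fold (2.02 to 2.84) higher, and Ndufa4l2, a hypoxia-induced mitochondrial protein, was 3.68-fold (3.33 to 4.08) lower and stood at 672 CPM in control members. With cells thinned and chosen again, the log2 ratios of Dnajb1 (0.99), Hk2 (0.82), Ldha (0.62) and Ndufa4l2 (-0.91) lay within 2-fold.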
